A study of Mus musculus with 3 samples.

Results

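Levels of 49 mouse genes for glutathione transferases, peroxidases and other antioxidant enzymes were read in 3 single-cell libraries from the testis and from the cauda epididymis, where mature sperm are held. The members were all genes whose symbol matched the families Gsta, Gstm, Gstp, Gstt, Gstk, Gsto, Gstz, Mgst, Gpx, Prdx, Txn, Txnrd and Sod followed by a digit, together with Cat, of 26124 genes listed. They comprised 22 cytosolic or mitochondrial glutathione transferases, 3 microsomal glutathione transferases, 8 glutathione peroxidases, 7 peroxiredoxins, 3 superoxide dismutases, 2 thioredoxins, 3 thioredoxin reductases and catalase. All 49 were protein-coding genes in the mouse annotation.

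Glutathione transferases join glutathione to electrophiles such as the products of lipid oxidation. Superoxide dismutases turn superoxide into hydrogen peroxide, which catalase, glutathione peroxidases and peroxiredoxins then reduce. Glutathione serves the peroxidases, and thioredoxin, kept reduced by thioredoxin reductase, serves most peroxiredoxins. Steroid-making Leydig cells and sperm, whose membranes are rich in polyunsaturated lipids, are both exposed to peroxides.

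The donor of the chimera cauda library was a Tsc22d3 knockout of the goGermline line that had been complemented with mouse induced pluripotent stem cells (Pax7-nGFP iPS x goGermline), and its label names spermatids and spermatozoa. For the KO cauda library a Tsc22d3 knockout without those cells was used (goGermline), and its label names epididymal cells. Both were aspirated from the cauda epididymis through the skin. The KO testis library came from the dissociated testis of an adult Tsc22d3 knockout (goGermline, Ozgene). Loss of Tsc22d3, which encodes a glucocorticoid-induced leucine zipper protein, leaves male mice without sperm of their own. The host was a knockout in all 3 libraries, but other cells of the chimera can descend from the host or from the stem cells, and these were not told apart. There was 1 library a group, so no test between groups was possible. Tsc22d3 itself was read at 22.8 CPM (molecules counted per 1000000 of the library) in the chimera cauda, 10.8 in the KO cauda and 6.05 in the KO testis. The part of the gene that was deleted is not given in the sources used here, so these 3′ counts do not check the labels.

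Depth was 5395856 unique molecular identifiers (UMIs, 1 for each captured molecule) in the chimera cauda, 41862286 in the KO cauda and 134795047 in the KO testis. The chimera matrix held 214502 barcodes with UMIs, down to 1 UMI, and only 54.5% of its UMIs lay in barcodes of at least 500. The smallest barcode held 501 UMIs in the KO cauda matrix and 500 in the KO testis matrix. Library levels thus set all barcodes of the chimera against larger barcodes alone in the knockout libraries. Levels are UMIs per 1000000 UMIs of the library or class (CPM), followed in parentheses by an exact Poisson 95% interval. The intervals cover counting error only. Because the 3′ end of each molecule is counted, levels were not divided by gene length. Cells were classed by raw UMIs of marker genes that include no member, in barcodes of at least 500 UMIs, 200 genes and at most 20% mitochondrially encoded UMIs. Marker genes set apart 2599 Leydig cells, 2413 fibroblasts, 2079 macrophages, 1271 smooth muscle or peritubular myoid cells, 779 Sertoli cells, 100 endothelial cells, 77 pericytes and 63 germ cells in the KO testis. The KO cauda held 1902 B lymphocytes, 1012 macrophages, 311 epididymal epithelial cells and 97 T or NK lymphocytes, so the labelled epididymal cells were a minority of its classed cells. In the chimera cauda only 31 barcodes passed as sperm, beside 65 macrophages and 50 B lymphocytes, and a further 732 smaller barcodes carried sperm markers.

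The 2 cauda libraries were not independent in their barcodes. Of the 222 chimera barcodes with at least 500 UMIs, 125 were also among the 3937 barcodes of the KO cauda, including 62 of the 65 chimera macrophages and 49 of the 50 B lymphocytes but only 2 of the 31 sperm barcodes. The chimera held a median of 5.47 times the UMIs of the same barcode in the KO cauda. The overlap was not limited to deep barcodes: 3936 of the 3937 KO cauda barcodes carried UMIs in the chimera, 3811 of them under 500. Listed barcodes under 500 UMIs had a median of 84 UMIs in the chimera, against 2 for its other small barcodes. In all, 58.8% of chimera UMIs lay in barcodes that the KO cauda lists. Results between these libraries are therefore given with the shared barcodes and without them. Over whole libraries, the leave-out took every barcode listed by the KO cauda from the chimera, but only the 125 from the KO cauda. The chimera cauda and KO testis shared 0 such barcodes, and the KO cauda and KO testis shared 14.

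Among glutathione peroxidases, 4 use selenocysteine, which is written as an in-frame TGA codon, and others use cysteine at the same place. The coding bases around that codon are printed because they separate the selenocysteine forms from the cysteine forms described next. Each line reads 5′ to 3′ on the coding strand of the reference transcript, with the catalytic codon in capitals. The search found no such pattern in Gpx8.
Gpx1: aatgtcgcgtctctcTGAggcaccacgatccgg
Gpx2: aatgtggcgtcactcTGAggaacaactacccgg
Gpx3: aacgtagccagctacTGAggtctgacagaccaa
Gpx4: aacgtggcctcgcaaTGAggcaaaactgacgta
Gpx5: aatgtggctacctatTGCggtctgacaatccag
Gpx6: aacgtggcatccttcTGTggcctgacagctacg
Gpx7: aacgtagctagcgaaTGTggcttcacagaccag

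The selenocysteine forms Gpx1, Gpx3 and Gpx4 carried most peroxidase UMIs. Gpx1, the cytosolic enzyme, stood at 1459 CPM (1427 to 1491) in the chimera cauda, 1241 (1230 to 1251) in the KO cauda and 606 (602 to 611) in the KO testis. Gpx4, which reduces lipid hydroperoxides and forms part of the sperm mitochondrial capsule, stood at 713 CPM (691 to 736), 599 (591 to 606) and 815 (810 to 819) in the same order. Gpx3, a secreted form, stood at 286 CPM (272 to 300), 278 (273 to 283) and 183 (181 to 186). The remaining selenocysteine form, Gpx2, had 0, 2 and 1 UMIs, at or under the limit of 3 UMIs taken as the floor. Of the cysteine forms, Gpx5, known as a secreted protein of the epididymal head, had 2, 8 and 0 UMIs. Gpx6 had 4, 1 and 2 UMIs. Gpx7, an enzyme of the endoplasmic reticulum, stood at 10.2, 9.08 and 16.3 CPM. Gpx4 shared 82.4% of the 60-base words of its last 400 bases with a pseudogene and another gene, so its counts are uncertain.

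Thioredoxin reductases also carry the TGA codon, as the penultimate codon before the stop. Their endings are printed for comparison with the peroxidases, with the TGA codon in capitals.
Txnrd1: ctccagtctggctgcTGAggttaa
Txnrd2: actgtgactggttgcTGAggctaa
Txnrd3: actcagaaaggctgcTGAggctag

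Txnrd1, the cytosolic form, stood at 34.7 CPM in the chimera cauda, 35.8 in the KO cauda and 53.4 in the KO testis. Txnrd2, the mitochondrial form, stood at 21.7, 14.4 and 20.5 CPM. Txnrd3, a form known from spermatids, stood at 9.82 (7.36 to 12.8), 3.75 (3.19 to 4.39) and 16 (15.3 to 16.7).

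Glutathione transferases set the KO testis apart from both cauda libraries. The 22 cytosolic or mitochondrial transferases together reached 8698 CPM there, against 286 for the KO cauda and 2158 for the chimera cauda. Gstm1, a mu-class enzyme of broad use, reached 3670 CPM (3660 to 3680) in the KO testis, 69.1 (66.6 to 71.6) in the KO cauda and 78.9 (71.6 to 86.8) in the chimera cauda. Gstm2 reached 2852 CPM (2843 to 2861), 45.9 (43.9 to 48.0) and 38.5 (33.5 to 44.2) in that order. In the chimera cauda the transferase UMIs were mostly Gstm5, at 1836 CPM (1800 to 1873), against 22.7 (21.3 to 24.2) in the KO cauda and 334 (331 to 337) in the KO testis. Members took 1.61% of all UMIs in the KO testis, 0.706% in the chimera cauda and 0.5% in the KO cauda. Tissue, library and cell makeup cannot be told apart in these sums, nor can fewer cells of a type and less RNA per cell. The chimera sum also takes in barcodes under 500 UMIs, which the knockout matrices lack.

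**Figure D1:**
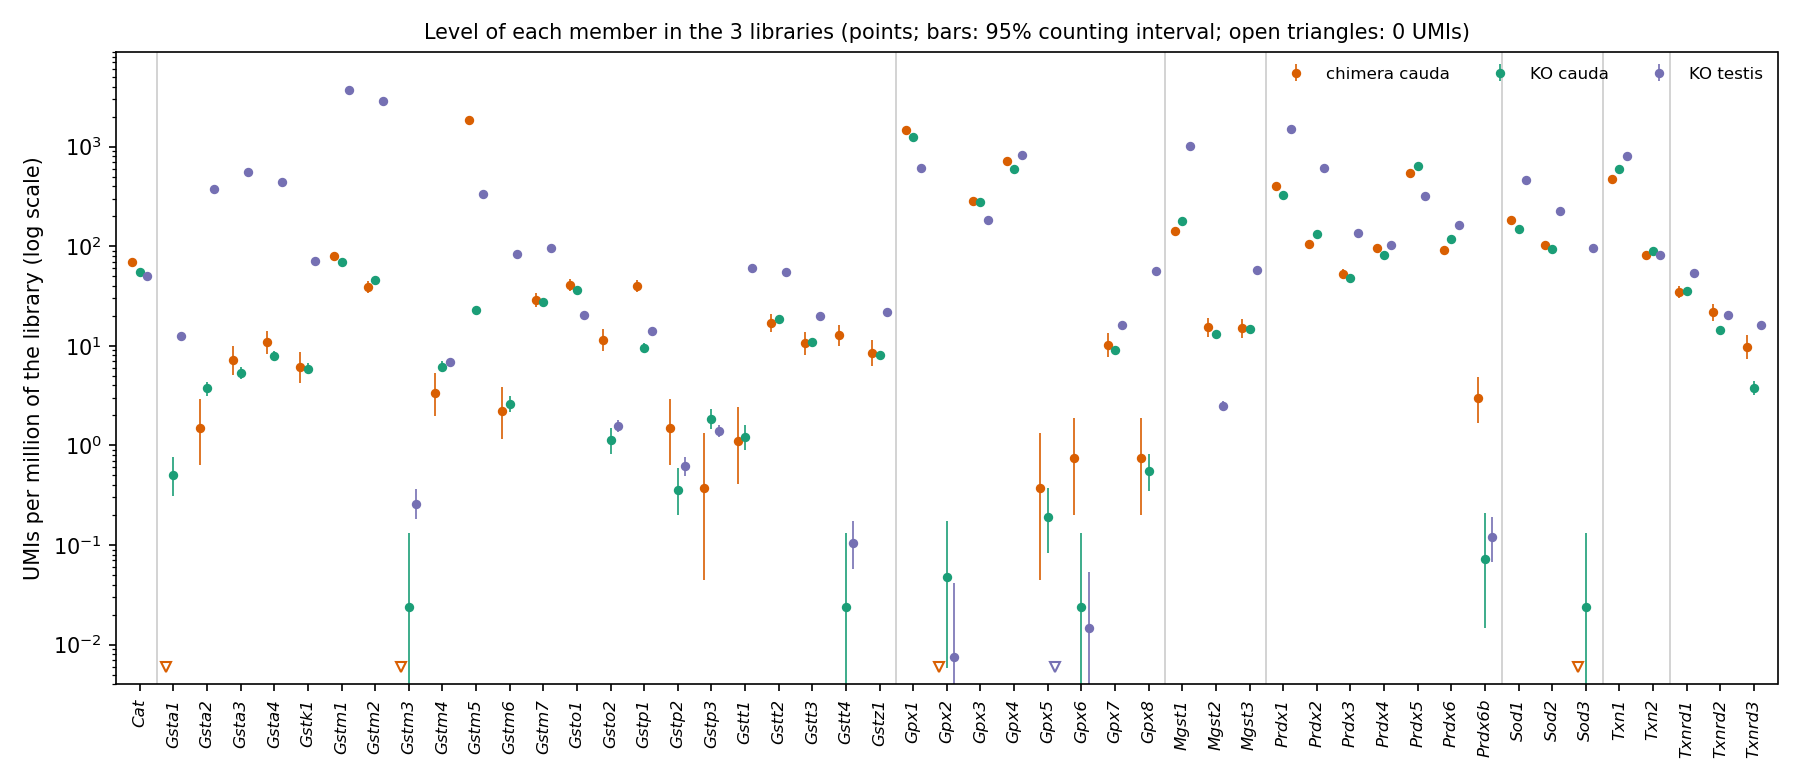
Level of all 49 members in the 3 libraries, in CPM on a log axis, with 95% counting intervals and open triangles for 0 UMIs; grey lines separate the 8 families. The KO testis leads for Gstm1 (3670) and Gstm2 (2852), and the chimera cauda for Gstm5 (1836).

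Peroxiredoxins and superoxide dismutases were also highest in the KO testis for most members. Prdx1 stood at 401 CPM in the chimera cauda, 329 in the KO cauda and 1498 in the KO testis, and Prdx2, its cytosolic relative, at 105, 131 and 608. Prdx3, the mitochondrial form, stood at 52.8, 48.1 and 137 CPM, and Prdx4, of the endoplasmic reticulum, at 96.2, 81.8 and 103. Prdx5 ran the other way, at 544, 632 and 318 CPM. Sod1 stood at 181, 150 and 463 CPM, and Sod2 at 102, 94.5 and 225. Mitochondrial thioredoxin Txn2 was nearly level, at 81.2, 88.4 and 81.0 CPM, and catalase stood at 69.5, 54.6 and 50.2. Several lesser members were seen mainly in the KO testis, among them Gpx8 at 56.7 CPM and Gstt1 at 60.4 CPM, both under 2 CPM in the cauda libraries. Prdx6b had 16, 3 and 16 UMIs, and Gstp2, which shares all its end words with Gstp1 and a pseudogene, had 8, 15 and 83.

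At the other end, 4 members, Gsta1, Gstm3, Gpx2 and Sod3, had 0 UMIs in the chimera cauda, which allows up to 0.556 CPM. Gstm3 and Sod3 each had 1 UMI in the KO cauda, and Gpx5 had 0 in the KO testis, which allows up to 0.0223 CPM. In all, 43 members lay above the floor of 3 UMIs in the chimera cauda, 43 in the KO cauda and 46 in the KO testis. At least 10 CPM was reached by 31, 26 and 38 members, and 100 CPM by 11, 10 and 19.

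Leydig cells of the KO testis had the highest level for 10 of the 29 members that reached 100 CPM in a testis class, and Sertoli cells for 7. No such share over all genes is given, so these counts only describe the members. A member is called class-high where its CPM was at least 4-fold that of all other classed cells of the library together and at least 50 CPM. Leydig cells held 4 class-high members, Gsta2, Gsta3, Gstk1 and Gstm2, of 30 tested, while 5.21% of all genes tested were class-high there. Gsta3, an alpha-class enzyme known for a role in steroid synthesis, stood at 1049 CPM (1039 to 1059), 11.6-fold the other cells (11.2 to 12). It was not particular to Leydig cells, since pericytes, a small class, followed at 774 CPM. Gstk1, the mitochondrial kappa enzyme, stood at 135 CPM (131 to 138), 8.29-fold (7.64 to 9.01). Gstm2 reached 4700 CPM (4679 to 4720), which is 4.44-fold, and Gsta2 602 CPM (594 to 609), which is 4.17-fold, both just past the 4-fold line. Fibroblasts came next for both, at 2046 CPM of Gstm2 and 479 CPM of Gsta2. With a mean over cells, or with no mitochondrial limit, the count of class-high members was 2. Gsta2 shared 37.8% of its end words with Gsta1 and related genes, so its counts are uncertain.

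Abundance in Leydig cells extended to members that other cells share. Gstm1 stood at 5645 CPM there, with 3963 in fibroblasts, 2377 in smooth muscle or myoid cells, 1323 in Sertoli cells and 1004 in pericytes. After each cell was thinned to 1000 UMIs, 98.7% of Leydig cells (98.2 to 99.1, exact Clopper-Pearson) had a Gstm1 UMI, against 95% of fibroblasts (94.0 to 95.8). Unthinned, the shares were 99.6% and 99%. Mgst1, a membrane-bound transferase and peroxidase, stood at 1612 CPM in Leydig cells, 675 in fibroblasts and 658 in Sertoli cells. Prdx1, the main cytosolic peroxiredoxin, stood at 2108 CPM in Leydig cells, 1662 in germ cells and 1392 in fibroblasts. Sod1, the cytosolic copper-zinc superoxide dismutase, stood at 712 CPM in Leydig cells and 388 in germ cells. Single Leydig cells varied: Gstm1 ran from 3008 CPM at the 10th percentile of cells to 8713 at the 90th, with a median of 5268. Gsta3 ran from 301 to 1941 CPM, with a median of 868.

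Leydig barcodes over the mitochondrial limit, 1686 against the 2599 within it, carried 64.2% and 11% mitochondrially encoded UMIs. On totals without those genes, 0 of 38 members tested were 2-fold higher and at least 10 CPM in the high group, while 23.0% of all genes were. In the other direction 1 member was lower, Gstp1, at 10.1 against 21.5 CPM, while 0.192% of all genes were. Short of the 2-fold line, shifts were common: the interval lay below 1 for 29 of the 38 members and above 1 for 2. The median log2 ratio of all genes tested was 0.38. Gstm1 stood at 4137 CPM over the limit and 6342 CPM within it, a ratio of 0.652 (0.641 to 0.664).

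Sertoli cells, which nurse germ cells, held 3 class-high members of 30 tested, Gstm6, Gstm7 and Prdx6, while 14.1% of all genes tested were class-high in Sertoli cells. Gstm6 stood at 800 CPM (781 to 818), 36.7-fold the other cells (34.8 to 38.8). At 1000 UMIs a cell, 54.7% of Sertoli cells (51.0 to 58.3) had a Gstm6 UMI, against 2.24% of Leydig cells (1.69 to 2.89). Unthinned, those shares were 91.5% and 28.2%, at median depths of 12508 and 16691 UMIs. Gstm7 stood at 600 CPM (584 to 616), 11.1-fold, beside 624 CPM in epididymal cells of the KO cauda. Prdx6, a peroxiredoxin with 1 catalytic cysteine and a phospholipase activity, stood at 642 CPM (626 to 659), 4.82-fold. Gsta4, an alpha-class enzyme for the lipid aldehyde 4-hydroxynonenal, stood at 853 CPM in Sertoli and 641 in Leydig cells, and Prdx2 at 1268 and 809 CPM.

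Gstm6 and Gstm7 lie beside each other in a run of 7 Gstm genes on chromosome 3, from 107895821 to 108044894 (GRCm38). Along it the genes are Gstm5, Gstm7, Gstm6, Gstm3, Gstm2, Gstm1 and Gstm4. Among Gstm UMIs of Sertoli cells, Gstm1 made up 32.4%, Gstm2 31.0%, Gstm6 19.6% and Gstm7 14.7%. Gstm6 and Gstm7 made up 0.282% and 0.75% in Leydig cells, where Gstm1 made up 51.6% and Gstm2 43.0%. Fibroblasts, smooth muscle or myoid cells and pericytes also had mostly Gstm1, at 60.3%, 61.1% and 61.2%. Germ cells differed, with 47.0% from Gstm5 (43.1 to 50.9). None of the 7 shared a 60-base word in its last 400 bases with another gene.

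**Figure D2:**
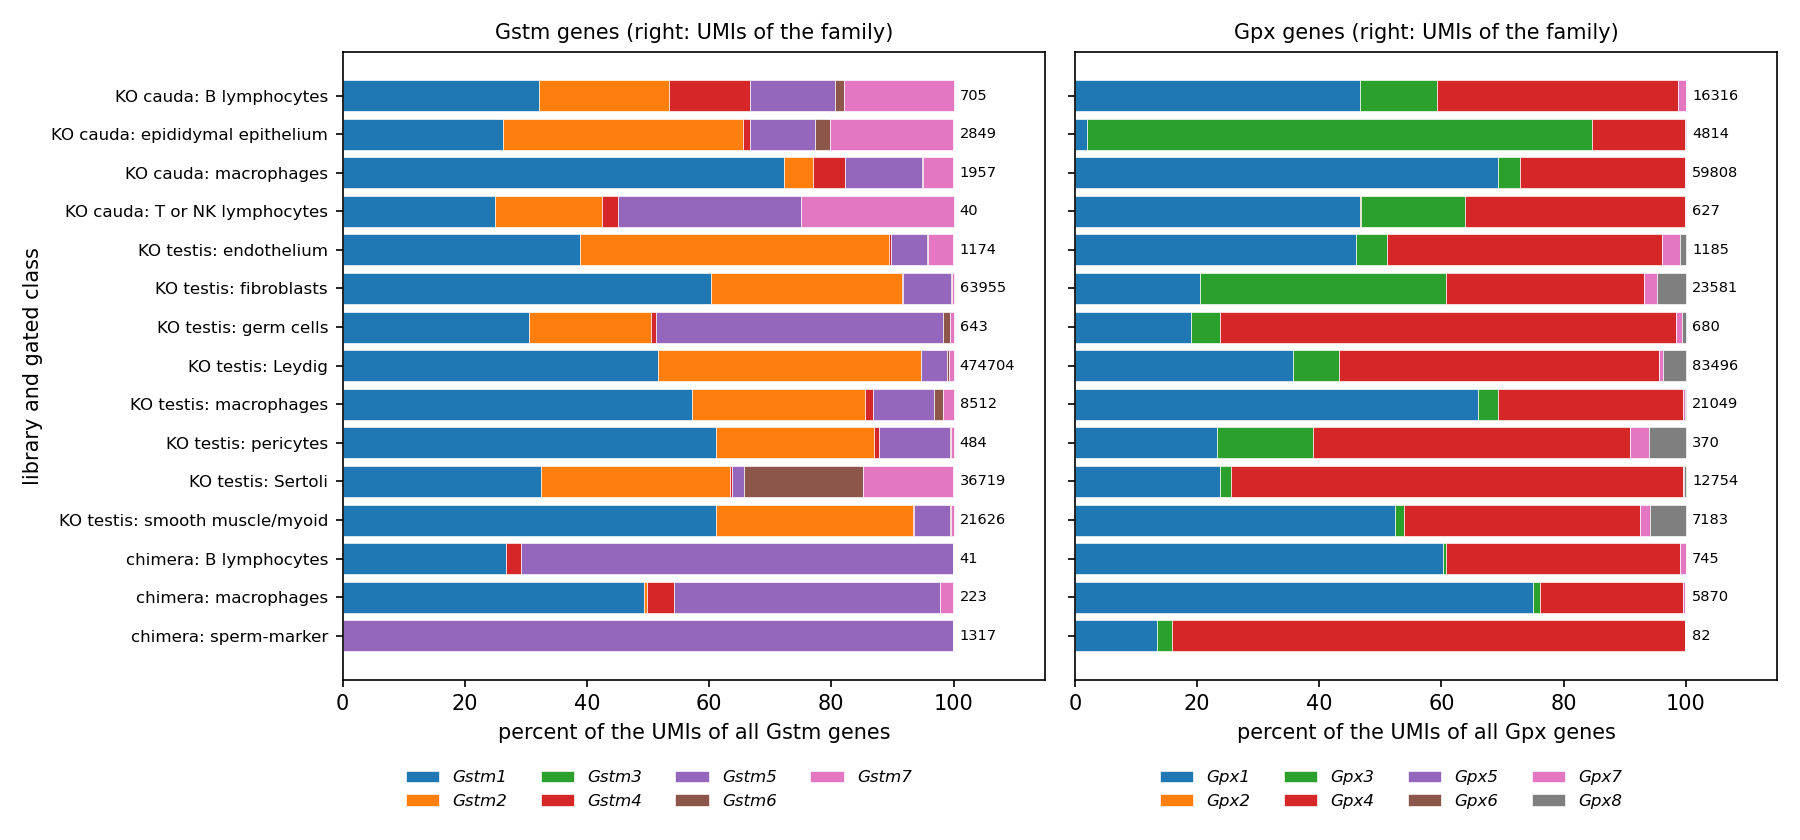
Makeup of the UMIs of the 7 Gstm genes (left) and 8 Gpx genes (right) in each class, in percent, with the number of UMIs of the family at the end of each bar. Gstm5 fills the sperm-marker bar, Gstm6 and Gstm7 show in Sertoli cells, and Gpx3 fills 82.7% of the epididymal Gpx bar.

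Pericytes, the contractile cells around small vessels, were marked by Sod3, the extracellular superoxide dismutase. They held 3 class-high members of 31 tested, Sod3, Mgst3 and Txnrd3, while 10.5% of all genes tested were class-high in pericytes. Sod3 stood at 882 CPM (778 to 996), 8.92-fold the other cells (7.85 to 10.1). Mgst3, a microsomal enzyme with peroxidase activity, stood at 397 CPM (328 to 476), 6.53-fold. Sod3 reached 168 CPM in smooth muscle or myoid cells, 154 in fibroblasts and 3.28 in endothelium, and had 0 UMIs in all classes of both cauda libraries. The pericyte class rests on 77 cells.

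Fibroblasts held 2 class-high members of 31 tested, Gpx3 and Gpx7, while 5.56% of all genes tested were class-high in fibroblasts. Gpx3 stood at 978 CPM (958 to 998), 9.55-fold the other cells, and Gpx7 at 54.0 CPM (49.5 to 58.8), 4.31-fold. Pericytes came next for both, at 197 CPM of Gpx3 and 40.7 CPM of Gpx7, and for Gpx7 the intervals overlapped. Germ cells held 1 class-high member of 31 tested, Txnrd3, at 113 CPM (95.7 to 132), while 16.8% of all genes tested were. Smooth muscle or myoid cells, endothelium and macrophages of the testis held 0 class-high members of 30 tested each, while 9.0%, 12.2% and 13.1% of all genes were. Free RNA of the suspension was gauged by Leydig markers: in testis macrophages their summed level was 3.78% of that in Leydig cells, and in fibroblasts 3.95%. Gstm1 stood at 7.17% of its Leydig level in macrophages and at 70.2% in fibroblasts.

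**Figure D3:**
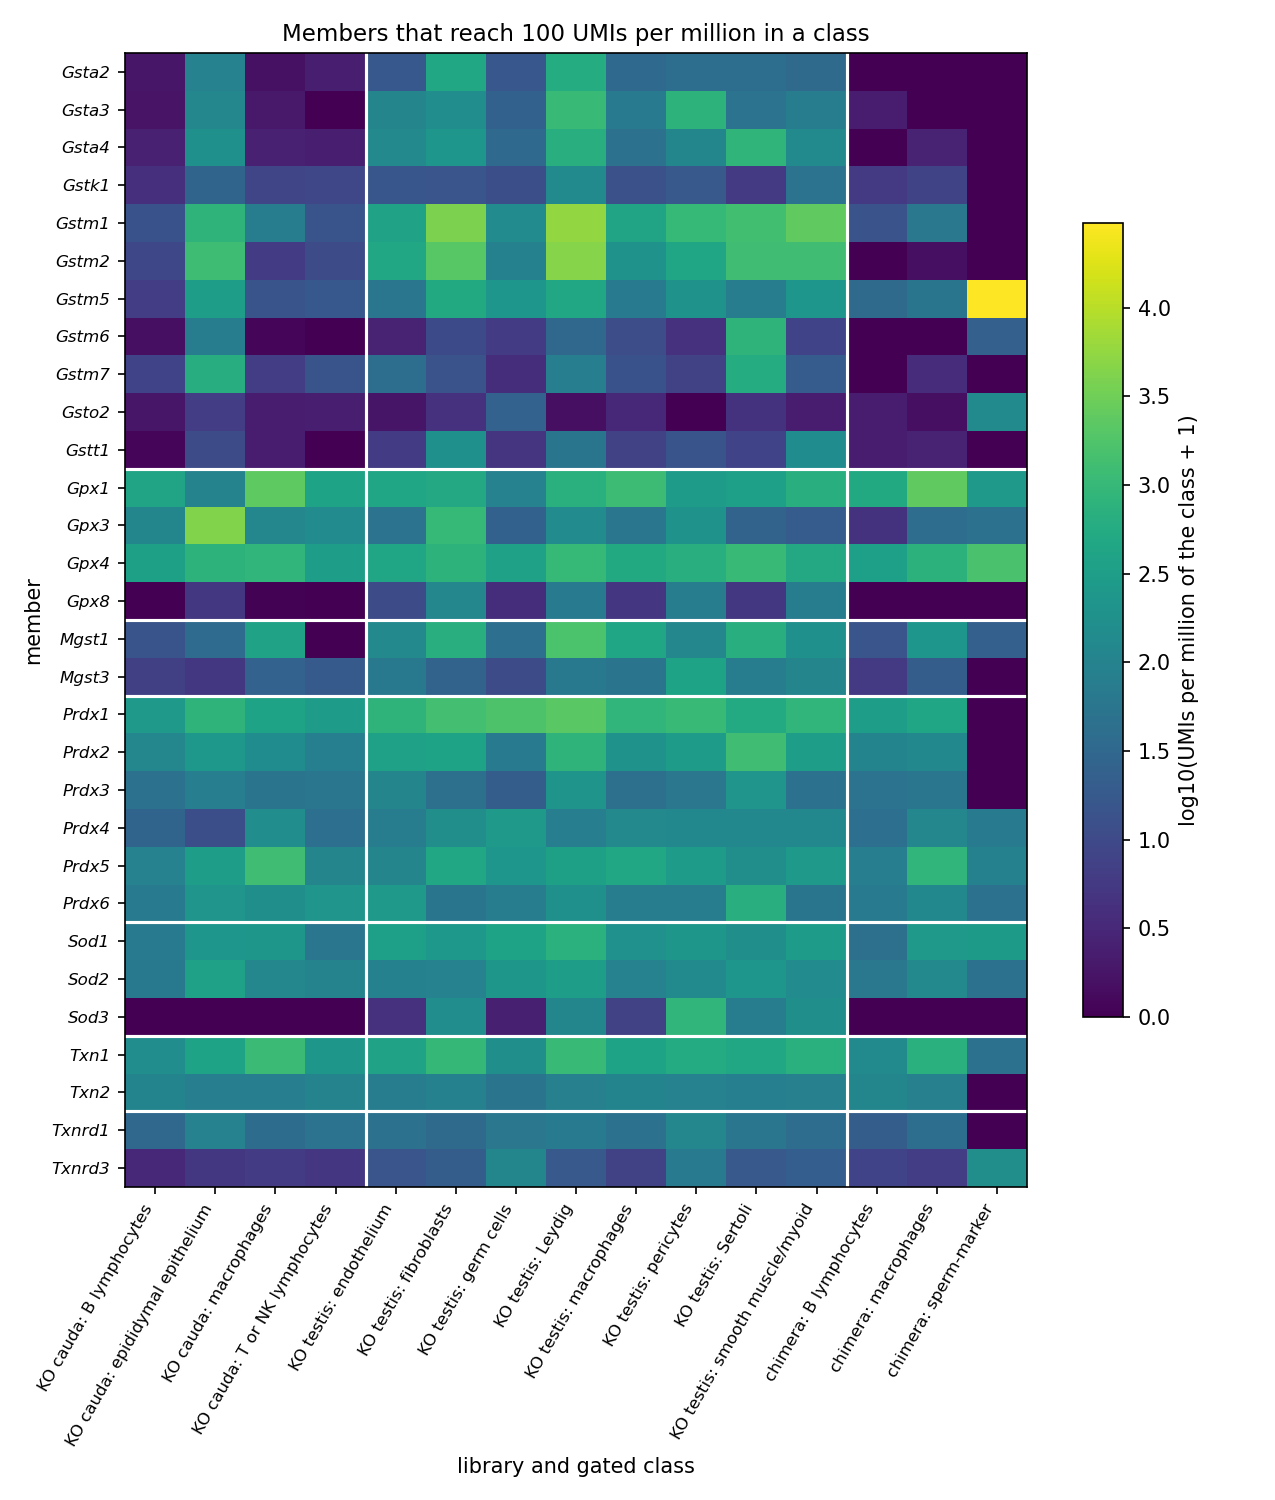
Level of the 30 members that reach 100 CPM in a class, as log10(CPM + 1), in the 15 classes of the 3 libraries. Gstm5 is brightest in the sperm-marker barcodes, Gpx3 in the epididymal epithelium, Gstm1 and Gstm2 in Leydig cells, and Sod3 is dark in all cauda classes.

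Epididymal epithelial cells of the KO cauda were led by Gpx3. The class held 11 class-high members of 25 tested, Gpx3, Gsta2, Gsta3, Gsta4, Gstm1, Gstm2, Gstm5, Gstm6, Gstm7, Gstt3 and Sod2, while 27.6% of all genes tested were class-high there. Gpx3 stood at 4325 CPM (4192 to 4462), 37.3-fold the other cells (35.7 to 38.9), and took 82.7% of Gpx UMIs. Gpx1 took 1.93% of them there, against 69.2% in macrophages of the same library. Gstm2 stood at 1213 CPM (1143 to 1286), Gstm1 at 815 (758 to 875) and Gstm7 at 624 (574 to 677). Sod2, the mitochondrial manganese superoxide dismutase, stood at 365 CPM (327 to 406), 4.11-fold.

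The epididymal class was shallow, with a median of 1833 UMIs a cell, and uneven. Its 2 deepest cells held 16.9% of its UMIs, and without them Gpx3 stood at 3775 CPM. Without the 10 deepest cells it fell to 2629 CPM, and the share of UMIs on the class's own markers fell from 4.97% to 2.61%. Gstm1 then stood at 490 CPM and Gstm2 at 958 CPM. With the shared barcodes left out, Gpx3 stood at 3782 CPM over 308 cells, and the count of class-high members was again 11. Thinned to 1000 UMIs, 68.5% of the cells deep enough (62.1 to 74.5) had a Gpx3 UMI, against 11% of B lymphocytes (9.59 to 12.5). Unthinned, the shares were 85.2% and 62.3%. The level of Gpx3 in B lymphocytes was 2.61% of its epididymal level, and that of the epididymal markers 3.66%. The part of epididymal RNA in the Gpx3 of B lymphocytes was not tested.

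Macrophages of the KO cauda had their highest member levels for Gpx1, Prdx5 and Txn1. They held 6 class-high members of 18 tested, Gpx1, Gsto1, Mgst1, Prdx4, Prdx5 and Txn1, while 15.0% of all genes tested were class-high there. Gpx1 stood at 2284 CPM (2262 to 2306), 5.69-fold the other cells. Prdx5, a peroxiredoxin of mitochondria, peroxisomes and cytosol, stood at 1280 CPM (1264 to 1297), 11.9-fold. Txn1, cytosolic thioredoxin, stood at 1137 CPM (1122 to 1153), 6.72-fold, and Mgst1 at 375 CPM (366 to 384), 27.0-fold. Chimera macrophages held 7 class-high members of 18 tested, while 15.8% of all genes were, but 62 of the 65 carry barcodes of the KO cauda. B lymphocytes of the KO cauda held 0 of 18 and T or NK lymphocytes 1 of 17, Gstp3 at 68.5 CPM (51.0 to 90.1), while 6.41% and 5.19% of all genes were. B lymphocytes of the chimera held 1 of 19, Mgst2 at 52.1 CPM (37.9 to 69.9), while 7.42% of all genes were.

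Macrophages of the KO testis and the KO cauda were compared as the same class in 2 tissues of knockout animals, where tissue and library cannot be told apart. A member counts as higher or lower here at 2-fold and at least 10 CPM in the higher group. Of 29 members tested, 11 were higher in the testis and 5 lower, while 15.8% of all genes were higher and 8.65% lower. Without the shared barcodes the counts were again 11 and 5, while 15.9% and 8.63% of all genes were. That leave-out kept 17796185 of the 18125678 UMIs of KO cauda macrophages, so it could hardly move the counts. Scaled by the median of ratios, which shifts the median gene by 0.25 on the log2 scale, 7 were higher and 6 lower.

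The 5 members lower in testis macrophages included Prdx5 and Txn1. Prdx5 stood at 488 CPM in the testis and 1280 in the cauda, a ratio of 0.381 (0.371 to 0.392). Txn1 stood at 396 and 1137 CPM, a ratio of 0.348 (0.337 to 0.359). Gsto1, an omega-class enzyme with thioltransferase activity, stood at 20.5 and 70.3 CPM, a ratio of 0.292 (0.253 to 0.334). Prdx6 and Gpx3 were the other 2, at ratios of 0.460 and 0.484. Gpx1, at 1152 and 2284 CPM, fell just short of the 2-fold line, with a ratio of 0.504 (0.495 to 0.514).

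Among the 11 higher members were Gstm1, at 405 against 78.0 CPM, Gstm2, at 200 against 5.24 CPM, and Gsta3, at 65.2 against 0.993 CPM. Those members stood in testis macrophages at 7.17%, 4.25% and 6.21% of their Leydig level, beside 3.78% for the Leydig markers. The part of Leydig RNA in these 3 differences was not tested. Prdx1 was also higher, at 888 against 396 CPM, a ratio of 2.24 (2.17 to 2.31), and stood at 42.1% of its Leydig level.

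Among the members, Gstm5, a mu-class transferase of the testis, was by far the highest in sperm-marker barcodes of the chimera cauda. The 31 barcodes held 1316 Gstm5 UMIs, or 30008 CPM (28408 to 31674), the second most abundant of 5332 genes with a UMI. Over the barcodes Gstm5 ran from 0 to 138 UMIs with a median of 36, and 29 of the 31 had at least 1 UMI. As a share of a barcode's UMIs the median was 3.25% and the highest 7.03%. The class was uneven: in its deepest barcodes the share was 0.264% of 4162 UMIs, 0.137% of 2911, 4.96% of 2781 and 0.0370% of 2704. All but 1 of the 1317 Gstm UMIs of the class were Gstm5, or 99.9%. Without the 2 shared barcodes the level was 31616 CPM.

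**Figure D4:**
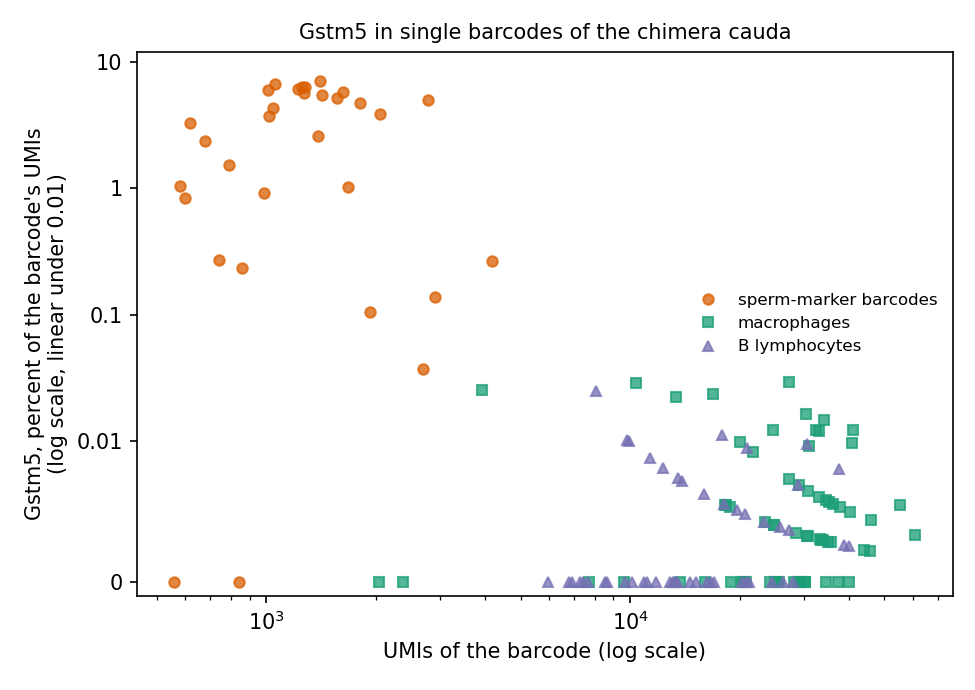
Gstm5 as percent of a barcode's UMIs (log axis, linear under 0.01) against the barcode's UMIs (log axis) for the 31 sperm-marker, 65 macrophage and 50 B lymphocyte barcodes of the chimera cauda. Sperm-marker barcodes reach 7.03% with a median of 3.25%, and 2 of them have 0 Gstm5 UMIs.

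Sperm barcodes had 4 class-high members of 17 tested, Gstm5, Gsto2, Gstt4 and Txnrd3, while 26.3% of all genes tested were class-high there. Over macrophages and B lymphocytes together, Gstm5 was 634-fold higher (528 to 768). Txnrd3 stood at 160 CPM from 7 UMIs, 26.6-fold (9.24 to 68.2), Gsto2 at 137 CPM from 6 UMIs and Gstt4 at 91.2 CPM from 4 UMIs. The Txnrd3 UMIs lay in 3 of the 31 barcodes, those of Gsto2 in 4 and those of Gstt4 in 2. The 732 smaller sperm-marker barcodes had 0 UMIs of Txnrd3 and of Gstt4, which allows up to 48.5 CPM, and 3 of Gsto2. Gpx4 stood at 1573 CPM (1224 to 1991) against 624 CPM, a 2.52-fold difference (1.95 to 3.21), and took 84.1% of Gpx UMIs in sperm barcodes. By the 2-fold rule 5 of 18 members tested were higher and 7 lower in sperm barcodes, while 36.1% and 26.8% of all genes were. With the shared barcodes left out, 4 were higher and 5 lower of 16, while 38.5% and 25.1% of all genes were.

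Several peroxide-removing members were low or unseen in sperm barcodes. Prdx1 had 0 UMIs, which allows up to 68.4 CPM, against 407 CPM in macrophages and B lymphocytes, so it was at least 5.96-fold lower. Txn1 had 2 UMIs, or 45.6 CPM, against 522 CPM, a ratio of 0.0874 (0.0106 to 0.316). Prdx5 had 4 UMIs, or 91.2 CPM, against 639 CPM, a ratio of 0.143 (0.0389 to 0.366). Cat, catalase, had 0 UMIs, which allows up to 68.4 CPM, against 80.0 CPM in macrophages and B lymphocytes, so a lower level was hardly shown. In the smaller sperm-marker barcodes Prdx1 and Txn1 were seen, each at 113 CPM (45.5 to 233) from 7 UMIs, and Prdx5 at 129 CPM (55.9 to 255) from 8. Cat again had 0 UMIs there, which allows up to 48.5 CPM.

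Gstm5 was also carried by small barcodes. The 732 sperm-marker barcodes under 500 UMIs held 816 Gstm5 UMIs, or 13202 CPM (12311 to 14139), the sixth most abundant gene there. Other barcodes under 500 UMIs held 7526, or 3146 CPM (3076 to 3218), a ratio of 4.2 (3.90 to 4.51). Those other small barcodes, with a median of 2 UMIs each, held 76.0% of all Gstm5 UMIs of the library and 44.3% of all its UMIs. They also held 53979 of the library's 69670 sperm-marker UMIs, against 7616 in the small sperm-marker barcodes. The comparison is therefore not sperm against a set without sperm RNA. Of 25 members tested between these sets, 5 were higher and 10 lower in sperm-marker barcodes, while 26.1% and 23.7% of all genes were. Apart from Gstm5, the higher ones rested on 1 to 3 UMIs. Without shared barcodes the counts were the same, while 25.4% and 23.3% of all genes were, and the Gstm5 ratio was 3.58 (3.33 to 3.85).

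The base sequence upstream of Gstm5 and of Gsta3 is shown because these 2 members led sperm barcodes and the Leydig fold differences. Antioxidant response elements, which bind Nrf2, were searched as TGACNNNGC on both strands of the 250 bases before the RefSeq start (GRCm38.p6). Of the 44 members with a promoter entry 7, or 15.9%, held a match, beside 11.5% of 27025 genes. They were Gsta3, Gstm5, Gstm7, Mgst1, Prdx1, Sod1 and Txnrd1. The cyclic AMP element TGACGTCA and the steroidogenic factor 1 element CAAGGTCA had 0 matches in members, beside 1.77% and 1.51% of all genes. A match is a string of letters and was not tied to binding. Gstm5 (chr3:107895604-107895853, plus strand) and Gsta3 (chr1:21240335-21240584, plus strand) are printed with the match in capitals.
Gstm5: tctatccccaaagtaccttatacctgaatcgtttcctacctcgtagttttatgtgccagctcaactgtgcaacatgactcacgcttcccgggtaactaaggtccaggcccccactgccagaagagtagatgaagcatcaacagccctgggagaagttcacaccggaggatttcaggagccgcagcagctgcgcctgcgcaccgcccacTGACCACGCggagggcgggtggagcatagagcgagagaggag
Gsta3: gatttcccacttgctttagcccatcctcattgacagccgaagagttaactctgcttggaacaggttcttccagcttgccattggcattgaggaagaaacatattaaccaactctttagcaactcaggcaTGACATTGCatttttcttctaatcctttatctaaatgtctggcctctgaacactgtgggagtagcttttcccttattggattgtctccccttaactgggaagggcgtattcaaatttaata

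Gstm5 lies on chromosome 3 at 107895821 to 107898686 on the plus strand (GRCm38) and overlaps the antisense gene 4933431E20Rik. Whether the counting used strand is not given in the sources used here, so it was not checked that reads of the 2 genes were kept apart. The annotation places no gene of the same strand over the 3′ end of Gstm5. Gsto1 and Gsto2 overlap Cfap43 on the other strand, with the same limit.

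Between the cauda libraries, 4 of 31 members tested were higher in the chimera and 0 lower, while 9.57% of all genes were higher and 1.88% lower. These sums are unlike, because the chimera matrix includes barcodes under 500 UMIs and the KO cauda matrix holds none. Gstm5 differed 80.9-fold (75.7 to 86.6), from 9908 against 950 UMIs. Gstt4, a theta-class gene, had 69 UMIs against 1, or 12.8 against 0.0239 CPM, a ratio of 535 (92.9 to 21446). Gsto2 stood at 11.5 against 1.12 CPM, a ratio of 10.2 (6.89 to 15.3). Gstm5, Gstt4 and Gsto2 were also class-high in the sperm barcodes of the chimera. Gstp1, the pi-class enzyme, stood at 39.7 CPM (34.5 to 45.3) against 9.60 (8.69 to 10.6), a ratio of 4.13 (3.48 to 4.89). Gstp1 shared 90.9% of its end words with Gstp2 and a pseudogene, so its counts are uncertain. The chimera was counted with Cell Ranger 4 and the KO cauda with 6.1.2, and the part of the version in any cauda ratio cannot be told apart.

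The other 27 members tested differed by less than 2-fold. Gpx3 stood at 286 against 278 CPM, a ratio of 1.03 (0.972 to 1.08), and Gpx1 at a ratio of 1.18 (1.15 to 1.20). Txn1 had the lowest ratio, 0.782 (0.75 to 0.815), and Txnrd2 the highest of the 27, 1.51 (1.23 to 1.84). Narrow intervals here show counting error of 1 library each and not the spread between animals.

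Leaving out the shared barcodes moved the count to 10 higher and 0 lower of 33, while 17.7% and 10.1% of all genes were. It took 62 of the 65 macrophages and 49 of the 50 B lymphocytes from the chimera. The KO cauda kept 956 of its 1012 macrophages and 1854 of its 1902 B lymphocytes. Left were 2223252 UMIs in the chimera and 41109676 in the KO cauda. Cell makeup thus changed mainly in the chimera, and its part in the shifts was not tested. Gstm5 then differed 209-fold (195 to 225), Gpx3 2.50-fold (2.36 to 2.64), Gstm7 2.39-fold and Gstm2 2.07-fold. Gstp1 remained past the rule at 3.62 (2.80 to 4.64). Among barcodes of at least 500 UMIs, Gstm5, Gstp1 and Txnrd3 were higher and Gpx3, Gstm2 and Gstm7 lower of 28 tested, while 7.58% and 2.68% of all genes were. There Gpx3 stood at 48.3 against 278 CPM, a ratio of 0.173 (0.146 to 0.205), and without the shared barcodes the ratio turned to 1.70 (1.30 to 2.20). The counts then were 7 higher and 11 lower of 30, while 25.2% and 26.8% of all genes were.

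**Figure D5:**
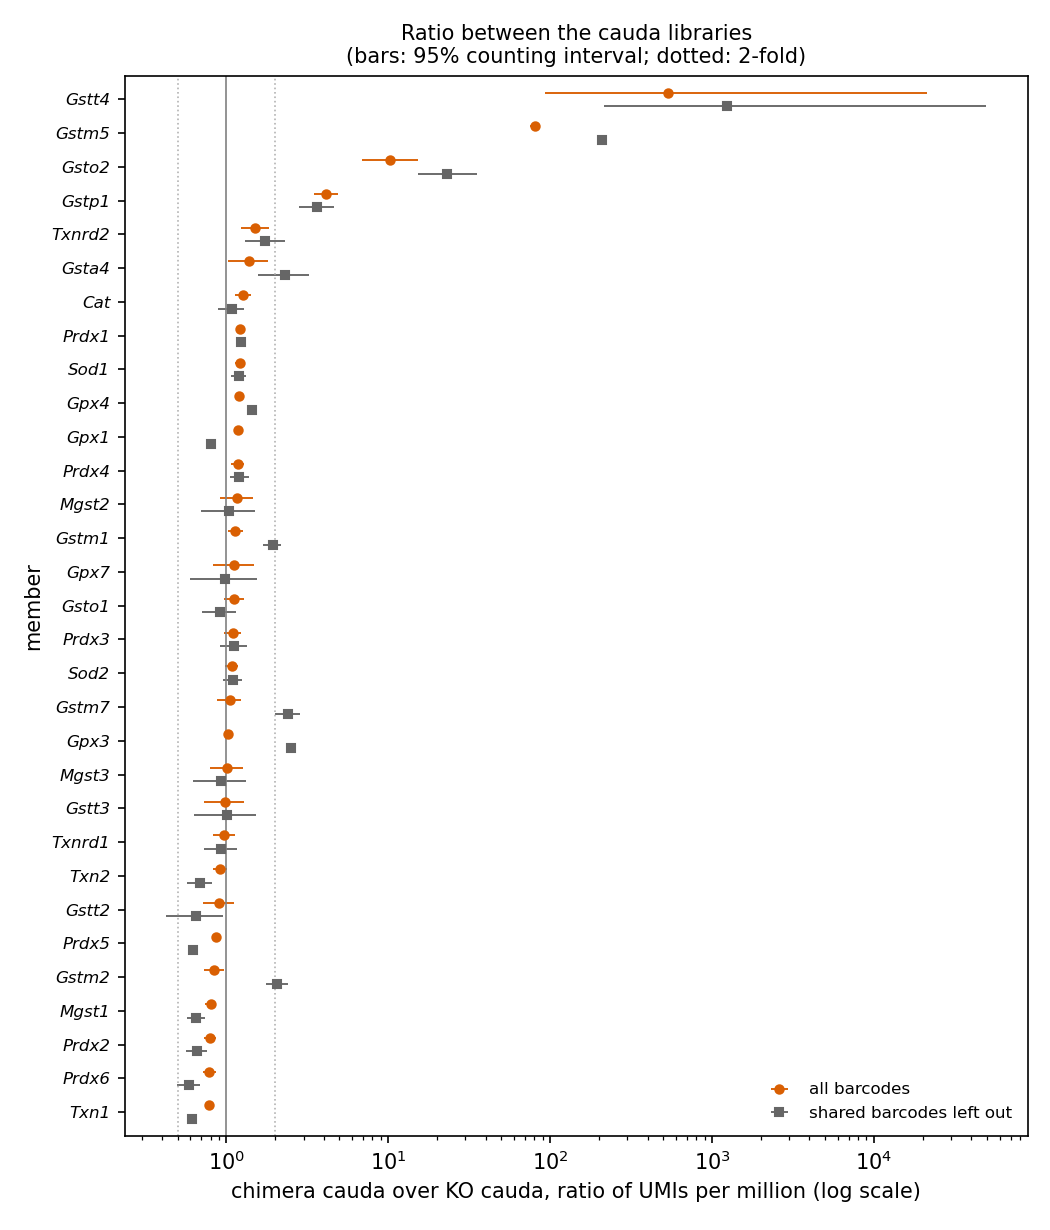
Ratio of chimera cauda to KO cauda for the 31 members tested, on a log axis with 95% counting intervals; circles use all barcodes and squares leave out the shared ones. Gstt4, Gstm5, Gsto2 and Gstp1 lie past 2-fold either way, and Gpx3 moves from 1.03 to 2.50.

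Within macrophages, Gstm5 and Gstp1 were higher in the chimera and Gpx3 lower, of 25 tested, while 4.81% of all genes were higher and 1.87% lower. Gstm5 stood at 53.3 against 13.6 CPM, a ratio of 3.91 (3.06 to 4.97), and Gstp1 at 25.8 against 6.57, a ratio of 3.94 (2.75 to 5.56). Gpx3 stood at 38.5 against 118 CPM, a ratio of 0.326 (0.253 to 0.414). In B lymphocytes the same 3 genes passed in the same directions, of 23 tested, while 5.89% and 1.57% of all genes were. The ratios there were 6.38 (4.06 to 9.74) for Gstm5, 8.45 (6.42 to 11) for Gstp1 and 0.0314 (0.00648 to 0.0920) for Gpx3. With the shared barcodes left out of the KO cauda, the ratios in macrophages were 3.97, 3.90 and 0.331, while 4.97% and 1.97% of all genes passed. In B lymphocytes they were then 6.33, 8.51 and 0.0316, while 6.02% and 1.58% of all genes passed. That leave-out kept all the chimera cells, 956 of 1012 KO cauda macrophages and 1854 of 1902 KO cauda B lymphocytes. It could therefore hardly move the ratios.

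Markers of other cells moved with 2 of these 3 genes. Gstm5 in chimera macrophages was 0.178% of its sperm level, beside 0.141% for the sperm markers. Gpx3 in KO cauda macrophages was 2.73% of its epididymal level, beside 3.1% for the epididymal markers. In B lymphocytes the shares were 0.114% and 0.120% for Gstm5 and the sperm markers in the chimera, and 2.61% and 3.66% for Gpx3 and the epididymal markers in the KO cauda. The part of sperm or epididymal RNA in these differences was not tested. Gstp1 had 0 UMIs in chimera sperm barcodes and stood at 25 CPM in KO epididymal cells.

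Genes around these enzymes were followed in 6 lists. Of 11 tested genes of glutathione synthesis and turnover, 0 passed the 2-fold rule in either direction between the cauda libraries, with a median log2 ratio of 0.08 beside 0.13 for all genes. Of all genes 9.57% were higher and 1.88% lower, and the counts of these lists are to be read against those shares. Slc3a2, Glrx3 and Ggct had most UMIs in that list. Of 9 NADPH-supplying genes 1 was higher, Me1, malic enzyme, at 17.1 against 3.44 CPM, and of 12 genes of the Nrf2 system and its known targets 1 was higher, Osgin1, at 116 against 2.46 CPM. Of 7 spermatid thioredoxins and related genes 1 was higher, Txndc2, at 12.6 against 0.191 CPM, from 68 and 8 UMIs. None of 15 genes of selenium handling and none of 10 superoxide and peroxide sources passed. The median log2 ratios were 0.38 for NADPH supply, 0.08 for the Nrf2 list, -0.06 for the thioredoxins, 0.05 for selenium handling and 0.41 for superoxide and peroxide sources.

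Without the shared barcodes, where 17.7% of all genes were higher and 10.1% lower, more list genes passed. Me1 was again higher, at 34.2 against 3.43 CPM, and Osgin1, at 266 against 2.38 CPM. Of 9 spermatid thioredoxins and related genes 3 were higher, Txndc2, Txndc8 and Nme8, the last 2 from 27 and 49 UMIs against 0. Of 15 genes of selenium handling 1 was lower, Pstk, at 7.20 against 15.5 CPM, and of 10 superoxide and peroxide sources 1 was higher, Paox, at 16.6 against 6.42 CPM. Glutathione synthesis had 0 of 10 in either direction. The list medians were then -0.05 for glutathione synthesis, 0.20 for NADPH supply, -0.18 for the Nrf2 list, -0.03 for selenium handling, -0.22 for the thioredoxins and -0.16 for superoxide and peroxide sources, beside 0.02 for all genes. The sign of the median thus turned for glutathione synthesis, the Nrf2 list, selenium handling and superoxide and peroxide sources. The leave-out took most macrophages and B lymphocytes from the chimera but few from the KO cauda, and the part of cell makeup in the turn was not tested.

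By class, 4 of the 11 NADPH genes were class-high in Leydig cells, Tkt, Me1, Idh1 and Aldh1l1, beside 5.21% of all genes tested. Class-high counts of the lists are over whole lists, tested or not, so they do not share a base with the shares of genes tested. In chimera macrophages 4 of the 11 were also class-high, G6pdx, Pgd, Idh1 and Idh2, beside 15.8% of all genes tested. In Leydig cells Me1 stood at 1721 CPM and Idh1 at 1001 CPM. In Leydig cells 1 of the 20 genes of glutathione synthesis and turnover was class-high, Slc7a11, the cystine importer, at 125 CPM. In epididymal cells 3 of the 20 were, Slc7a11 and the glutathione synthesis enzymes Gclc, at 127 CPM, and Gclm, at 152 CPM. Of all genes tested, 5.21% were class-high in Leydig cells and 27.6% in epididymal cells. Sperm barcodes held Txndc2, Txndc8 and Nme8, 3 of 9 in their list, at 251, 228 and 91.2 CPM, while 26.3% of all genes tested were class-high there. Between testis and cauda macrophages, 6 of 14 genes of the Nrf2 list were higher in the testis, Nfe2l2, Maff, Hmox1, Osgin1, Fth1 and Akr1b8, while 15.8% of all genes were higher, with a list median of 0.67 beside 0.24 for all genes. Selenop, the plasma selenium carrier, stood at 6407 CPM in testis and 551 CPM in cauda macrophages, a ratio of 11.6 (11.4 to 11.9). Of 13 genes of glutathione synthesis and turnover 4 were higher in the testis, Gclc, Ggt5, Slc3a2 and Abcc1, and 1 lower, Gsr, while 8.65% of all genes were lower. Of 11 superoxide and peroxide sources 2 were higher, Paox and Smox, and 2 lower, Cybb and Xdh. Gsr, glutathione reductase, stood at 43.1 and 141 CPM, a ratio of 0.306 (0.278 to 0.336), and Cybb at 537 and 1737 CPM, a ratio of 0.309 (0.301 to 0.317).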

How the data were processed

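Cells of 3 mouse samples were profiled with 3′ single-cell chemistry version 3.1, per the labels' protocols. The deposited matrices hold whole-number UMI counts per gene and barcode, made by the authors with Cell Ranger 4 (chimera cauda) or 6.1.2 (both knockout libraries), per the file headers. Seurat 4.2.1, Cell Ranger 6 and the build GRCm38.p6 are listed per the submitters' processing notes. Whether strand was used in counting is not given in the sources used here. Cells were gated on at least 10 UMIs over at least 3 markers of a class, at least 0.2% of the cell's UMIs (1% for epididymal epithelium), and 3 times any other list that reached its own minimum share. Small sperm-marker barcodes held under 500 UMIs and at least 5 sperm-marker UMIs over 2 markers. These gate settings were set after seeing the data. No doublet caller was run. Counts were summed per library or class, with exact Poisson intervals for levels, exact conditional binomial intervals for ratios and Clopper-Pearson intervals for shares. A gene was tested against the size rule (2-fold, 10 CPM in the higher group) where its level allowed, with a floor of 3 UMIs. With 1 library a group no p-value was computed. Members with 100 CPM in a library or class, or past the size rule, were named with values, and others by count. The members, marker lists and pathway lists were chosen with earlier results of these data known. Alternatives were other gates, mitochondrial limits, scalings and level filters, and leaving out shared barcodes. The code was tested on simulated data. Python 3.11.15, numpy 2.4.6, scipy 1.17.1, pandas 2.3.3 and matplotlib 3.10.9 were used. A class result for the list of superoxide and peroxide sources is not reported here.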

Additional observations from a re-analysis of the deposited data

Results flagged for a closer look

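Prdx4, the peroxiredoxin of the endoplasmic reticulum, differed between the cauda libraries in opposite directions in 2 classes. Its level in macrophages was 119 CPM for the chimera and 154 for the KO cauda, a ratio of 0.776 (0.673 to 0.891). In B lymphocytes it stood at 42.6 and 26.2 CPM, a ratio of 1.62 (1.12 to 2.28), from 36 and 478 UMIs. With the shared barcodes left out of the KO cauda the ratios were 0.773 and 1.63. That leave-out kept all the chimera cells, so it could hardly move the ratios. Scaled by the median of ratios the 2 ratios were 0.653 (0.566 to 0.75) and 1.38 (0.958 to 1.94). The interval in B lymphocytes then reached below 1, and neither class passed the 2-fold rule by total UMIs. The difference between the 2 classes was not tested, and most of these chimera cells carry barcodes that the KO cauda also lists.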

How the results depend on the processing

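Of the counts of members recomputed under alternatives, 110 stayed within 1.5 times and 13 moved further. Over all barcodes of the cauda libraries, the count lower was 3 with barcodes of at least 500 UMIs, the counts were 8 higher and 2 lower with no filter on level, and 10 were higher with shared barcodes left out. With at least 500 UMIs and shared barcodes left out, 7 were higher and 11 lower, and the Gpx3 ratio reversed to 1.70. Median-of-ratios scaling gave 2 lower between cauda macrophages and 7 higher between testis and cauda macrophages. It shifted the median gene by 0.14 to 0.25 on the log2 scale over the 5 comparisons. Between small barcodes, 6 were lower with 2 times the marker UMIs, and 2 were higher and 5 lower within 20 to 99 UMIs, where the Gpx3 ratio reversed to 1.12 (0.607 to 1.88). Leydig cells held 2 class-high members with no mitochondrial limit and 2 with a mean over cells. The causes were not tested. Of values for single genes, 309 stayed, 86 moved and 2 reversed. The leave-out of shared barcodes was chosen after seeing the data. Over all barcodes it took most macrophages and B lymphocytes from the chimera cauda but few from the KO cauda. No paired analysis was possible because each group had 1 library and the labels share no replicate numbers. Depth limits the sperm class most: its floor is 68.4 CPM, against 0.0691 CPM in Leydig cells.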
